A study of Mus musculus with 24 samples.

Results

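The stem cell transcription factor heptad is the set of Tal1, Lyl1, Lmo2, Gata2, Runx1, Erg and Fli1. Its chromatin was followed as all ATAC-seq peaks and all listed differential sites that lay within these 7 genes or within 50 kb of them, with the genes taken by name as 7 of 21911 protein-coding genes. ATAC-seq marks open DNA by the insertion of adapters by the Tn5 transposase. The heptad held between 52 of 22156 and 126 of 65306 peaks in a deposited list, and 30 of 11927, 40 of 17311 and 89 of 50928 sites in the 3 tables of sites (159 in all).

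The heptad proteins bind together at many enhancers of blood stem and progenitor cells, and they also bind enhancers near their own genes, which ties the set into a circuit of mutual regulation. Tal1 and Lyl1 are basic helix-loop-helix proteins that bind an E-box with an E-protein partner, Lmo2 is a LIM-only protein that bridges the helix-loop-helix and GATA proteins, and Gata2 is a zinc finger protein that binds the GATA motif. Runx1 binds DNA through its runt domain together with Cbfb, and Erg and Fli1 are Ets proteins, as is Pu.1. Several enhancers of these genes are known by their distance in kb from a start site, such as Tal1 +19 and +40, Gata2 −3.9 and +9.5, Runx1 +23 and +110, Erg +85 and Fli1 +12.

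The study asked how loss of Daxx, a chaperone of the histone variant H3.3, alters blood stem cells, and whether the added loss of Pu.1, the product of Spi1, changes that outcome. Cells were sorted from the bone marrow of C57BL/6 mice in 24 libraries and 11 groups, with 2 or 3 libraries a group, and 1 peak list was deposited per group. Daxx-WT libraries are labelled Daxx +/+ Cre +/-, Daxx-KO libraries Daxx F/F Cre +/- and DKO libraries carry Daxx F/F together with Pu.1 F/F and the same Cre +/-, so that all groups carried Cre and no control carried a floxed allele by its label. A figure legend of the study nevertheless gives 1 of the 2 controls at 3 days a single floxed Daxx allele. Long-term haematopoietic stem cells are written LT-HSCs, and the sorted progenitors were CMPs, the common myeloid type, and GMPs, which give rise to granulocytes and monocytes. Each of these 3 had 2 Daxx-WT and 2 Daxx-KO libraries, and the study's methods place them 3 weeks after tamoxifen in RosaCreERT2 mice, in which Cre can act in every tissue. A further set of LT-HSCs, taken 3 days post induction (3 d.p.i.), comprised 2 Daxx-WT and 3 Daxx-KO libraries. The methods place it in RosaCreERT2 mice too, with tamoxifen by injection, while the 3-week mice had it by oral gavage. The ATAC-seq protocol also differed between these 2 sets. KLS cells, which are c-Kit+ Lin- Sca-1+ and include stem cells and multipotent progenitors, were taken 3 weeks post induction (3 w.p.i.) as 2 Daxx-WT, 3 Daxx-KO and 2 DKO libraries. The methods give 5 to 11 weeks as the usual age of the mice at induction. For KLS cells at this time the methods describe Mx1Cre, which is induced through interferon signalling by pI:pC. The floxed Daxx allele spans exons 2 to 7. No group lost Pu.1 alone, so the part of Pu.1 in a DKO difference cannot be told apart from that of the joint loss.

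With 1 list a group, peaks have no measure of spread. The 6 lists at 3 weeks other than KLS hold positions alone, without known depth. The 3-day LT-HSC lists and the KLS lists, 5 in all, also give a fold enrichment for each peak, the authors' ratio of reads in the peak over their background. In sorted populations, fewer cells of a type and less accessible DNA per cell cannot be told apart. Of 6 stem cell marker genes, 4 to 6 had a promoter peak in each LT-HSC list and 3 to 5 in each KLS list. In the CMP and GMP lists 4 or 5 did so, and thus these genes did not separate the populations. Of 6 genes of granulocyte precursors, 4 or 5 did so in the CMP and GMP lists, against 1 or 2 in the LT-HSC lists, 4 in Daxx-KO KLS cells and 2 in both other KLS lists. All 3 T cell genes lacked a promoter peak in every list, 1 or 2 of 3 B cell genes had one, and 0 to 2 of 4 genes of tissues outside the blood had one. Of 3 erythroid genes, all had one in KLS Daxx-WT and Daxx-KO cells and 1 in DKO cells. The part of the composition of the sorted cells in the results below was not tested.

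The sequences that follow are the central 300 bp of 4 peaks that carry main differences or are present throughout, read from the GRCm38 (mm10) reference on the plus strand. Capitals mark matches on either strand to the GATA motif AGATAA, an E-box written CAGATG or alternatively CAGCTG, the Runx motif TGTGGT or the Ets motif GGAAGT. The first, at chr6:88203092-88203391, is the Gata2 +9.5 enhancer in an intron of Gata2 and was the only one of the 4 with the E-box and GATA composite CTGNNNNNNNNAGATAA, where the capitals show its E-box CATCTG and the GATA motif AGATAA 8 bases on. The second, at chr16:95439440-95439739, is the intronic Erg element known as +85, which had no peak in DKO cells. The third, at chr16:92801322-92801621, is from the intronic Runx1 peak at +24.7, taken here as the +23 element. The fourth, at chr16:92641114-92641413, is an intronic Runx1 peak that among the KLS lists only the DKO list held.
Gata2 +9.5: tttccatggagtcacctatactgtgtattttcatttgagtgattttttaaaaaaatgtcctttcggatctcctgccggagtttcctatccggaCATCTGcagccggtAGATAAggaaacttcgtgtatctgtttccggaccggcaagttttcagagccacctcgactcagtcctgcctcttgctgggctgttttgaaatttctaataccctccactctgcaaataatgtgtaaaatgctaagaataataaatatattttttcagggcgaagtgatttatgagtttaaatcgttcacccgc
Erg +147.1: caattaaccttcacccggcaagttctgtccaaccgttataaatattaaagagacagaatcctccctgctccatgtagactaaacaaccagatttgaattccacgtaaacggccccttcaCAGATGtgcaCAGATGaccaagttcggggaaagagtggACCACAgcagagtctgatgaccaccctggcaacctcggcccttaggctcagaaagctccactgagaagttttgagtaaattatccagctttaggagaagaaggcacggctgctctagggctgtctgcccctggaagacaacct
Runx1 +24.7: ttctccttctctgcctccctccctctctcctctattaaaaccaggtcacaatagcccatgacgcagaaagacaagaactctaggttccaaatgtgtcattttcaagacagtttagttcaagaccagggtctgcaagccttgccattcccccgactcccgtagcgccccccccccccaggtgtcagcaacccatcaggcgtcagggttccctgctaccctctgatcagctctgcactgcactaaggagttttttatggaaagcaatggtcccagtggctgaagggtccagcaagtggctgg
Runx1 +184.9: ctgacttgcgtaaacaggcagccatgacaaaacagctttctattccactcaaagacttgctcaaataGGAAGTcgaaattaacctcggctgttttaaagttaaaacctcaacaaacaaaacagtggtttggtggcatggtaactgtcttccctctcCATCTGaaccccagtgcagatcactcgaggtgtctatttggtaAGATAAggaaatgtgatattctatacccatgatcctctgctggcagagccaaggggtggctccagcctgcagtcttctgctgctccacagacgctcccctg
The composite stood in 0.519% of the 33325 windows of the same length at the KLS Daxx-WT peaks. Erg +147.1 held 2 E-boxes of the form CAGATG and 1 Runx motif, written here as ACCACA. An E-box of these forms stood in 34.0% and a Runx motif in 24.5% of the Daxx-WT windows. Runx1 +184.9 held 1 Ets motif, 1 E-box (as CATCTG) and 1 GATA motif, and the shares of the 22156 DKO windows with each of these were 27.6%, 32.0% and 7.41%. Runx1 +24.7 held none of these letters in the window shown, which does not reach the stated +23 position. A match describes the sequence and does not show binding.

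In mm10, Tal1 lies at chr4:115056426-115071755, Lyl1 at chr8:84701457-84704715, Lmo2 at chr2:103957986-103981878 and Gata2 at chr6:88193891-88207032, all on the plus strand. Runx1 lies at chr16:92601466-92826149, Erg at chr16:95359169-95586593 and Fli1 at chr9:32422204-32542861, all on the minus strand. Across the 11 lists the heptad peaks merged into 184 separate regions, each named here by the distance in kb of its centre from the first protein-coding start of its gene, positive in the direction of transcription. Of these, 28 had a peak in all 11 lists: 10 at Lyl1, 6 at Runx1, 4 at Gata2, 3 each at Lmo2 and Fli1, and 1 each at Tal1 and Erg. A single list held 39 of the regions. By position, 14 regions lay at a promoter of their own heptad gene, meaning within 1 kb of a start site, 8 at the promoter of another gene, 69 in introns, 7 over exons, 44 upstream and 42 downstream. Of the 8 at other promoters, 5 were near Lyl1, a short gene that lies among Nacc1, Trmt1, Ier2 and Nfix, so that peaks within 50 kb of Lyl1 may belong to its neighbours.

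**Figure D1:**
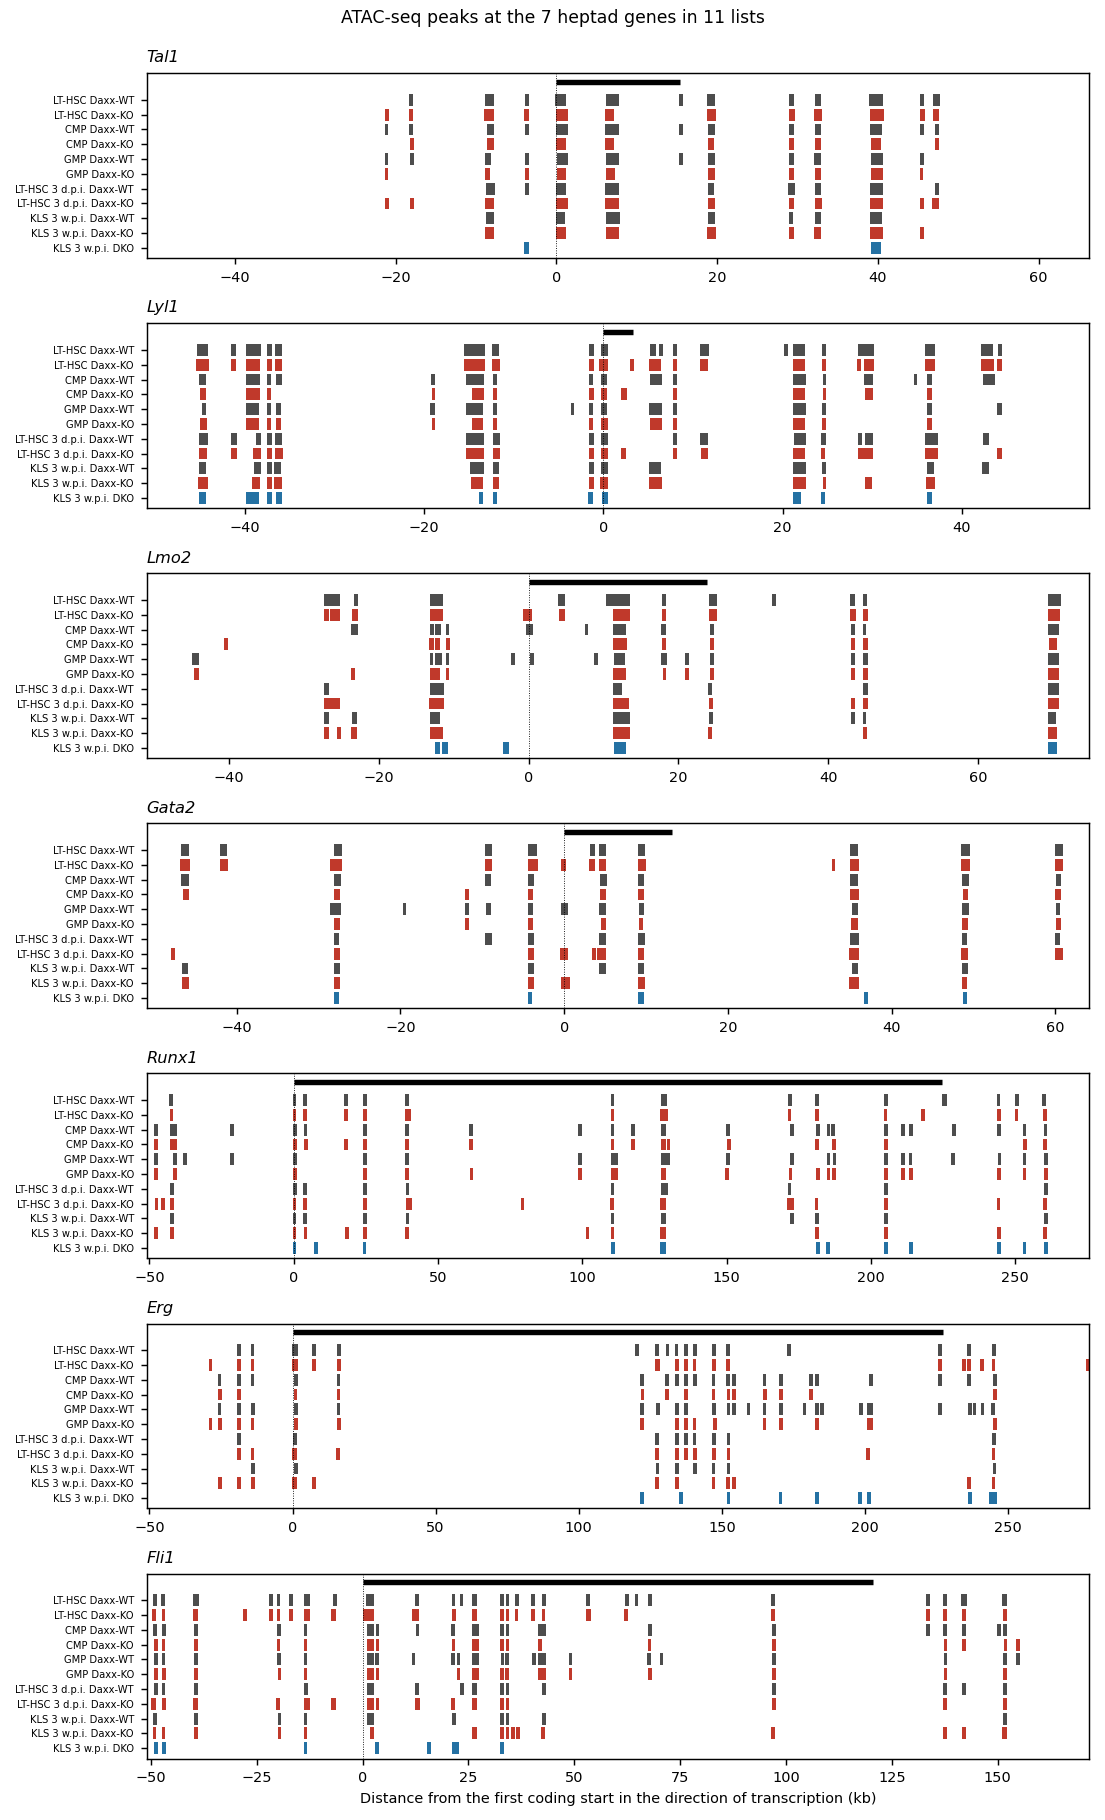
Every peak within 50 kb of a heptad gene, with 1 row per list and the distance in kb from the first coding start on the horizontal axis (black bar, gene; grey, Daxx-WT; red, Daxx-KO; blue, DKO; narrow peaks are drawn wider to be visible). Most Tal1 rows hold the same run of peaks from −8.3 to +39.8 kb, and the DKO row holds only 2 Tal1 peaks.

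Per unit of length, Lyl1 was the most peak-rich member in every list. It had 20 peaks in LT-HSCs of each genotype and 11 in DKO KLS cells, or 19.4 and 10.7 peaks per 100 kb, and at least 98.4% of protein-coding genes had fewer per 100 kb in every list. Tal1 moved furthest within the distribution of genes. It had 12 peaks in LT-HSCs of both genotypes, 7 in KLS Daxx-WT, 8 in KLS Daxx-KO and 2 in DKO cells. The density at Tal1 was thus 6.07 peaks per 100 kb in KLS Daxx-WT cells, above 86.0% of genes, and 1.73 in DKO cells, above 50.2%. Runx1 and Erg, the longest members, lay near the middle of all genes in Daxx-WT LT-HSCs, at 4.62 and 5.19 peaks per 100 kb, above 48.2% and 54.1% of genes. In DKO cells they stood at 3.70 and 3.05 per 100 kb, above 75.7% and 69.7% of genes, and in Daxx-WT CMPs at 7.70 and 6.41, above 72.4% and 62.4%.

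**Figure D2:**
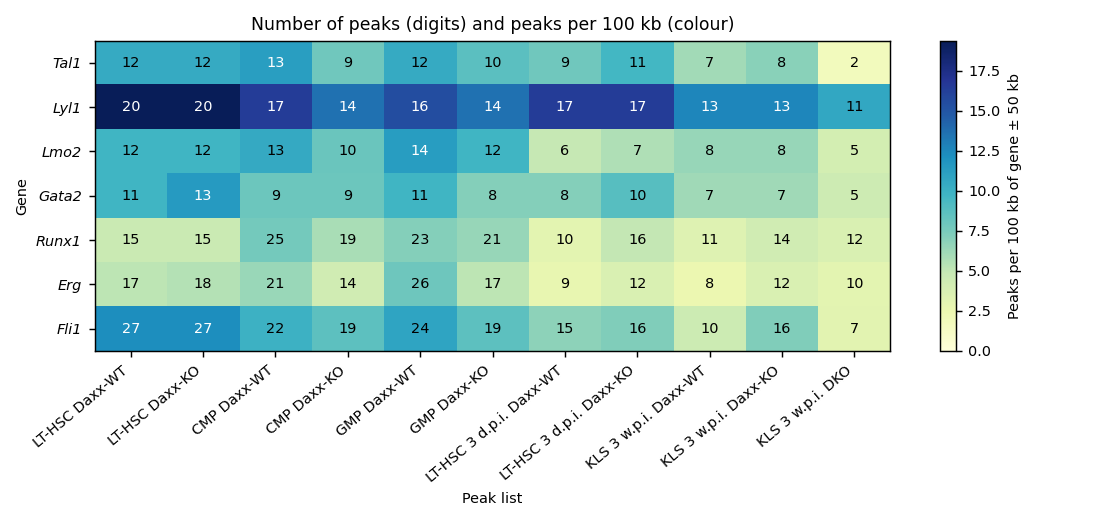
Number of peaks (digits) and peaks per 100 kb (colour) of each heptad gene with 50 kb on either side, in each of the 11 lists. Lyl1 is darkest in every list, and Tal1 goes from 7 peaks in KLS Daxx-WT to 2 in DKO cells while Erg goes from 8 to 10.

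All 7 promoters had a peak in 10 of the 11 lists, that is in every Daxx-WT and Daxx-KO list. In DKO KLS cells the promoters of Lyl1, Lmo2 and Runx1 had a peak, and those of Tal1, Gata2, Erg and Fli1 had none. Thus 4 of 7 heptad promoters with a peak in KLS Daxx-WT cells lacked one in DKO cells, against 14.2% of coding genes (1780 of 12560). Daxx-KO cells lacked 0 of 7, against 1.57% of coding genes. The proteins that work with the heptad (Ldb1, Ssbp2, Ssbp3, Tcf3, Tcf12, Cbfb and Cbfa2t3) kept a promoter peak in all 7 cases, and of 7 paralogs with a Daxx-WT peak 2 lacked one in DKO cells, Tal2 and Lmo1. The DKO list was shorter, and the median fold enrichment of all its peaks was 4.93, against 5.67 in the Daxx-WT list. When both lists were cut to the same length by fold enrichment, an alternative chosen after seeing the data, 3 heptad promoters had a Daxx-WT peak and 1 of them, at Tal1, had none in DKO cells, against 8.36% of coding genes. With a stricter score in both lists 3 of 6 had none (Tal1, Erg and Fli1), against 13.9%.

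At Tal1 the promoter peak reached a fold enrichment of 5.43 in KLS Daxx-WT and 5.22 in Daxx-KO cells, and 6.94 and 7.32 in the 3-day LT-HSCs of these genotypes. These are middling values, since 45.1% of the Daxx-WT KLS peaks had a lower one. Beside the promoter, 5 more Tal1 regions were missing only from the DKO list, at −8.3, +6.9, +19.3, +29.2 and +32.5, the last of them at the promoter of Pdzk1ip1. The +19 element, an enhancer of early blood cells and endothelium, had the highest Tal1 value in KLS Daxx-WT cells, 6.86 (above 68.8% of peaks), and reached 6.85 in Daxx-KO cells. What the DKO list held at Tal1 was the +39.8 region, which is the erythroid +40 element, at 3.68 and a width of 1160 bp. The values there were 5.13 and 1545 bp in Daxx-WT and 5.08 and 1711 bp in Daxx-KO cells. The other Tal1 peak of the DKO list was the −3.7 region at 3.61, which both other KLS lists lacked but 6 lists of other cells held.

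Lyl1, the close relative of Tal1, kept its promoter peak in all lists. Its fold enrichment in KLS cells was 3.83 in Daxx-WT, 3.59 in Daxx-KO and 2.72 in DKO cells, where only 1.18% of peaks were weaker. The region at +42.9, inside Nfix, had a Daxx-WT peak and no mutant peak in 4 comparisons, the most of any heptad region. These were CMPs, 3-day LT-HSCs and KLS cells for both mutants, where the KLS comparisons share their Daxx-WT list. In LT-HSCs at 3 weeks, both genotypes had a peak there. At Lmo2 the region at +12.2, at a second promoter, had a peak in all lists, with 5.13, 4.76 and 4.74 in Daxx-WT, Daxx-KO and DKO KLS cells. The Lmo2 region at −12 was also present throughout, as 1 peak in the LT-HSC, KLS Daxx-WT and KLS Daxx-KO lists, as 3 in the CMP and GMP lists of both genotypes and as 2 in DKO cells, of 727 and 744 bp against 1435 bp in KLS Daxx-WT cells. The first Lmo2 promoter, at −0.1, had a peak only in Daxx-KO LT-HSCs and in Daxx-WT CMPs and GMPs. The strongest Lmo2 peak in each KLS list, at +70.2 with 8.66, 10.1 and 7.26, lay at the promoter of 4931422A03Rik.

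At Gata2, the −3.8 and +9.5 enhancers had a peak in all 11 lists. The +9.5 enhancer, which is needed for the emergence of stem cells in the mouse embryo, reached 5.42 in KLS Daxx-WT, 6.00 in Daxx-KO and 3.25 in DKO cells, and 45.0%, 45.5% and 7.59% of the peaks in those lists were weaker. Its peak widths were 684, 848 and 693 bp. The Gata2 promoters differed. The distal one, at +0.1, had a peak in the Daxx-KO list and not in the Daxx-WT list of LT-HSCs at both times and of KLS cells, although these were among the weakest peaks, at 2.35 and 2.49 with at most 0.582% of the peaks of a list below them, and Daxx-WT GMPs also had it. The proximal one, at +4.6, had a peak in 9 lists and lacked one in both mutant KLS lists. Its Daxx-WT KLS peak, at 2.73, was above only 0.702% of the list.

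Runx1 kept its promoters and the +23 and +110 elements in all lists. The +23 element drives Runx1 in emerging stem cells. The region taken for it, at +24.7, had the highest fold enrichment of the known Runx1 elements, with 8.21 in KLS Daxx-WT, 9.64 in Daxx-KO and 6.06 in DKO cells. Its peak narrowed from 1554 and 1578 bp to 841 bp. Both Runx1 promoters, at +0.2 and at +128.3, kept a peak of 4.92 and 5.07 in DKO cells, against 5.18 and 4.40 in Daxx-WT cells. The element at +110.3 differed most in rank between genotypes. It stood at 3.24 in Daxx-WT and 4.95 in Daxx-KO 3-day LT-HSCs, above 4.25% and 29.5% of peaks. In KLS cells it stood at 4.60, 9.11 and 5.78 in Daxx-WT, Daxx-KO and DKO cells, above 26.6%, 82.5% and 64.3% of peaks, so that in both sets the Daxx-KO list had the highest value. The +3.8 region, by contrast, had no peak in GMPs or DKO cells.

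At Erg, stated distances were met from a later start than the first, so that the +85 element is the region at +147.1. It had 5.53 in KLS Daxx-WT and 5.80 in Daxx-KO cells and no DKO peak. The +75 element, at +137.2, had a peak in every LT-HSC, CMP and GMP list and in no KLS list. The +65 element, at +127.4, lies at another Erg promoter, and it had 3.56 and 3.88 in KLS Daxx-WT and Daxx-KO cells and no DKO peak. At the first Erg promoter, the KLS peak was 643 bp wide in Daxx-WT and 1658 bp in Daxx-KO cells. Fli1, the other Ets member, differed at its promoter in the same lists in the other direction, with widths of 1621 and 1087 bp and folds of 4.36 and 3.51. The Fli1 element at −13.2, known as −15, kept a peak in all lists, with 6.97, 9.25 and 4.33 in KLS Daxx-WT, Daxx-KO and DKO cells. The Fli1 +12 element had a peak in both LT-HSC sets and in Daxx-WT CMPs only.

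**Figure D3:**
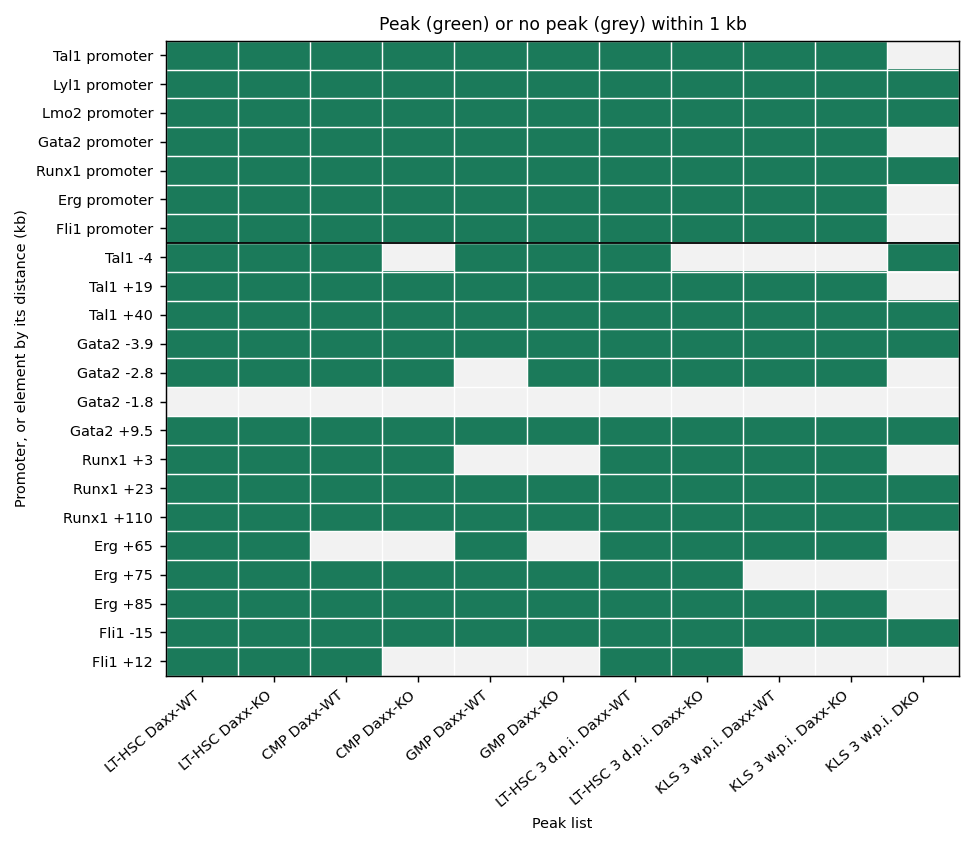
Presence (green) or absence (grey) of a peak within 1 kb of each heptad promoter (upper 7 rows) and of 15 known elements (lower rows, by stated distance in kb) in the 11 lists; Lmo2 elements are not drawn. The DKO column lacks 4 promoters, and Tal1 +19 and Erg +85 are grey in that column alone.

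Of 20 known elements with a stated distance, which include 2 beyond the 50 kb limit and 4 at Lmo2 whose start is uncertain, 18 had a peak within 1 kb in Daxx-WT and 19 in Daxx-KO LT-HSCs. The numbers were 18 and 14 in CMPs, 16 and 14 in GMPs, and 18 and 17 in the 3-day LT-HSCs. In KLS cells they were 13 in Daxx-WT, 13 in Daxx-KO and 10 in DKO cells. Cut to the same length by fold enrichment, the KLS Daxx-WT list held 8 and the DKO list 10, so that the order of these 2 counts turned. Tal1 +40, Gata2 −3.9 and +9.5, Runx1 +23 and +110 and Fli1 −15 met a peak in all 11 lists, while Gata2 −1.8 met none.

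Among LT-HSCs at 3 weeks, 12 of 117 Daxx-KO heptad peaks (10.3%) had no Daxx-WT counterpart, against 13.9% of all Daxx-KO peaks, and 11 of 114 Daxx-WT peaks (9.65%) had no Daxx-KO counterpart, against 6.78% of all. With lists cut to equal length by width, the first of these shares was 5.61%, against 11.5% of all. The Daxx-KO lists of CMPs and GMPs were shorter as a whole, with 50590 and 49677 peaks against 66070 and 65306. Of the members, 6 had fewer peaks in Daxx-KO CMPs and Gata2 had 9 in both genotypes, and all 7 had fewer in Daxx-KO GMPs, with the largest differences at Erg, 21 against 14 in CMPs and 26 against 17 in GMPs. In CMPs 32 of 120 Daxx-WT heptad peaks (26.7%) had no Daxx-KO counterpart, against 28.5% of all peaks, and 6 of 94 Daxx-KO peaks (6.38%) had no Daxx-WT counterpart, against 6.26%. In GMPs the shares were 30 of 126 (23.8%), against 27.6%, and 5 of 101 (4.95%), against 4.55%. Cut to equal length by width, the Daxx-KO shares were 17.0% in CMPs and 17.8% in GMPs, against 19.8% and 18.5% of all, and the Daxx-WT share in GMPs was 12.6%, against 18.9%. Of the Daxx-WT LT-HSC peaks, 26 of 114 (22.8%) had no peak in Daxx-WT CMPs, against 28.1% of all, and 36 of 114 (31.6%) none in GMPs, against 36.7%. Of the Daxx-KO LT-HSC peaks, 49 of 117 (41.9%) had none in Daxx-KO CMPs, against 41.3%, and 46 of 117 (39.3%) none in GMPs, against 48.3%.

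Regions with a peak in 1 genotype only recurred at the heptad about as often as over the 100446 merged regions of all peaks, a background added after seeing the data. A Daxx-WT peak without a mutant peak recurred in 2 or more comparisons at 20 of the 184 regions (10.9%), against 10.9% of all regions. Of these, 7 (3.80% of the 184) did so in both CMPs and GMPs, against 4.65%, and 6 (3.26%) in 3 or more comparisons, against 1.71%. These 6 were Lyl1 +42.9, Tal1 +15.4 (LT-HSCs, CMPs and GMPs), Gata2 −9.3, Runx1 +171.8, Erg +140.2 and Fli1 +42.5. A mutant peak without a Daxx-WT peak recurred at 13 regions (7.07%, against 7.02%), 2 of them in both LT-HSC sets, and in 3 comparisons at 2 regions (1.09%, against 0.925%), Gata2 +0.1, described above, and Runx1 +244.1. The Runx1 +244.1 region, downstream of the gene, had 5.48 in Daxx-KO 3-day LT-HSCs, 6.90 in Daxx-KO and 3.45 in DKO KLS cells and no peak in their Daxx-WT lists, but Daxx-WT LT-HSCs, CMPs and GMPs at 3 weeks also had it. The 2 KLS comparisons share their Daxx-WT list.

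Among the 3-day LT-HSC peaks, 21 of 89 Daxx-KO heptad peaks (23.6%) had no Daxx-WT counterpart, against 24.1% of all, and 6 of 74 Daxx-WT peaks (8.11%) had no Daxx-KO counterpart, against 8.68%. Cut to equal length by fold enrichment, these shares were 10.8%, against 16.9% of all, and 20.3%, against 16.3%. The largest step was at Runx1, from 10 to 16 peaks. Of the 21 unmatched Daxx-KO peaks, 12 (57.1%) lay on a peak of Daxx-WT LT-HSCs at 3 weeks, against 82% of all such peaks, a lookup chosen after seeing the data. In KLS cells, 20 of 78 Daxx-KO heptad peaks (25.6%) had no Daxx-WT counterpart, against 31.8%, and 6 of 64 Daxx-WT peaks (9.38%) had no Daxx-KO counterpart, against 8.06%. These shares turned when the lists were cut to equal length by fold enrichment, to 4 of 39 Daxx-KO peaks (10.3%), against 21.3% of all, and 29 of 64 Daxx-WT peaks (45.3%), against 20.6%. Of the 20 unmatched Daxx-KO peaks, 14 (70.0%) lay on a peak of Daxx-WT LT-HSCs, against 78.9%. Peaks shared by both KLS genotypes were wider in Daxx-KO at 44 regions and narrower at 13, with a median log2 width ratio of 0.11 that equalled the 0.11 of all shared peaks.

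In DKO cells, of 52 DKO heptad peaks, 20 (38.5%) had no Daxx-WT counterpart, against 21.4% of all DKO peaks. The 61.5% with a counterpart has an exact 95% interval of 47.0% to 74.7%, which covers counting error only and treats neighbouring peaks as independent. With lists of equal length by fold enrichment, 33 of 52 (63.5%) had none, against 36.1% of all. In the other direction 32 of 64 Daxx-WT heptad peaks (50%) had no DKO counterpart, against 48.4%. The 19 regions with a DKO peak and no KLS Daxx-WT peak were 8 at Erg, 5 at Runx1, 3 at Fli1, 1 each at Tal1, Lmo2 and Gata2 and 0 at Lyl1. The 27 regions with a peak in Daxx-WT and Daxx-KO but not in DKO cells were 6 each at Tal1 and Fli1, 5 at Erg, 4 at Lmo2, 3 at Runx1, 2 at Gata2 and 1 at Lyl1. Neither kind of region was counted over the merged regions of all peaks, so these numbers by gene have no background. Shared regions were narrower in DKO cells at 23 places and wider at 8, with a median log2 width ratio of −0.22 against −0.18 over all shared peaks.

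Many of the unmatched DKO peaks were peaks of normal progenitors. Of the 20, 14 (70.0%) lay on a peak of Daxx-WT CMPs or GMPs, against 75.4% of all unmatched DKO peaks, and 5 (25%) on a peak of Daxx-WT LT-HSCs, against 32.2%, again by a lookup chosen after seeing the data. At the level of regions, 9 had a peak in DKO cells and in a Daxx-WT progenitor list but in none of KLS Daxx-WT, KLS Daxx-KO and LT-HSC Daxx-WT: 5 at Erg, 3 at Runx1 and 1 at Fli1. The Runx1 regions were +184.9, +213.4 and +253.0, with folds of 3.36, 3.85 and 4.91. The Erg region at +121.8 reached 5.61, above 61.8% of DKO peaks, and that at +198.1 reached 4.63. The heptad shares of unmatched peaks here did not stand above those of the whole list. Regions of this kind were not counted over the merged regions of all peaks.

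The tables of sites add values per library at regions that the authors had selected on the same libraries, so that the directions and sizes below describe listed sites and the tests are no independent evidence. Values are reads at a site divided by a normalisation constant of the library. A log2 ratio compares the group means after adding 1, and tests are by limma on log2(value + 1) adjusted by Benjamini and Hochberg over every window that the authors' software had tested. The study describes its genomic data as biological replicates and counts n in mice, and the labels of the libraries name no animal. The mean number of reads per window ranged from 4.21 to 16 among the libraries and was highest in the DKO libraries, at 9.98 and 16 against 8.35 and 7.45 in Daxx-WT. Scaling to these means instead moved the median of all log2 ratios by 0.39, 0.48 and −0.67 in the 3 tables. It turned the sign of 1 heptad site, Lyl1 +11.4 in LT-HSCs. In all 159 heptad sites the libraries of the groups did not overlap, as in 11865 of 11927, 17234 of 17311 and 50909 of 50928 of all listed sites, which follows from their selection.

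At 3 d.p.i. the heptad of LT-HSCs had 30 listed sites, 16 higher and 14 lower in Daxx-KO cells, against 29.1% higher among all listed sites. Neither Tal1 nor Gata2 had a site. Within peaks 8 of 10 were higher, against 66.3% of all sites in peaks, and outside peaks 8 of 20, against 14%. Runx1 had 11 sites, of which 8 were higher, and Lmo2 had 3, all higher and all outside peaks. By limma none of the 30 was called, with 0% of all windows called higher and 0% lower, although 28 had an unadjusted p below 0.05, as had 11454 of all 11927 listed sites. Scaling by reads per window called 0 of the 30 and 15 of all sites.

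The site at the Fli1 promoter had scaled values of 413, 389 and 338 in Daxx-KO against 251 and 272 in Daxx-WT libraries. Its log2 ratio was 0.54, with an adjusted p of 1 by limma, and all 3 Daxx-KO libraries stood above both Daxx-WT libraries. The Fli1 promoter peak of the same cells had a fold enrichment of 5.17 in the Daxx-WT and 3.89 in the Daxx-KO list. At the Runx1 +110 element the values were 154, 171 and 136 against 89.0 and 97.5, a log2 ratio of 0.71 with an adjusted p of 0.588 by limma. This element thus stood higher in both the list and the table. The first Lmo2 promoter had a weak site at +0.7, with 37.6, 36.3 and 35.9 against 20.3 and 15.9.

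Other sites in LT-HSCs were small. The 5 with the largest ratios were Erg −11.3 (1.5), Runx1 −43.0 (1.36), Runx1 +102.9 (−1.35), Erg +206.5 (−1.30) and Erg +265.2 (−1.28), and adjusted p-values by limma were between 0.301 and 0.47. Runx1 −43.0 lay on a peak upstream of the gene, with 31.2, 27.7 and 29.6 against 6.76 and 15.0, and its neighbours at −45.5 and −48.2 were also higher, by ratios of 1.16 and 0.84. At Lyl1 +11.4 the values were 231, 325 and 247 against 381 and 380, a log2 ratio of −0.50 that became 0.03 when scaled by reads per window, so its direction depends on the scaling.

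In KLS cells, both mutants were compared with the same 2 Daxx-WT libraries. Daxx-KO had 40 heptad sites, of which 8 were higher and 32 lower, against 19.1% higher among all. Within peaks 4 of 5 were higher, against 61% of all, and outside peaks 4 of 35, against 8.6%. limma called none of the 40, with 0% of windows called higher and 0% lower, while 39 had an unadjusted p below 0.05, as had 16749 of 17311 listed sites. Other settings called some. A pseudocount of 5 called 2 higher and 4 lower heptad sites, beside 539 and 3824 of all 17311 listed sites. The fit with the replicate number as a block called 1 higher and 3 lower, beside 223 and 2073 of all listed sites. Under both settings the calls were thus no more frequent at the heptad than among all listed sites. Whether the replicate numbers pair the libraries is not known.

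The 4 higher sites in peaks were intronic or distal. Fli1 +35.4 had 193, 196 and 194 in Daxx-KO against 100 and 105 in Daxx-WT libraries, a log2 ratio of 0.91 with an adjusted p of 0.337 by limma, and only the Daxx-KO KLS list had a peak centred there. Runx1 +18.3 had 93.5, 125 and 78.1 against 48.4 and 55.0 (0.92). Gata2 +35.5, on a peak within Dnajb8, had 165, 239 and 205 against 120 and 124 (0.73), and the peak there had a fold enrichment of 8.55 in Daxx-KO and 5.24 in Daxx-WT cells. Erg +153.7 had 112, 181 and 98.8 against 80.3 and 67.6 (0.81), where Daxx-KO library 2 stood above its group.

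No promoter or known element had a listed site inside a peak in this table. Those listed near one were weak and lower, namely Gata2 −1.4 (−1.26) and +1.1 (−0.81), Lmo2 −0.1 (−0.89), Runx1 +21.5 (−1.39), Tal1 +41.3 (−0.95) and Fli1 +12.4 (−1.06), with Daxx-WT means between 31.3 and 51.9. The largest ratios of the table belonged to sites with few reads. Tal1 −41.3 had 4.45, 3.50 and 2.82 against 20.1 and 22.9, a log2 ratio of −2.29, and Lmo2 −40.3 had 24.5, 34.1 and 15.1 against 7.30 and 4.59 (1.88). The others among the 5 largest were Lmo2 −4.4 (−1.59), Lyl1 −25.5 (−1.56) and Fli1 +83.1 (−1.51).

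DKO cells had 89 heptad sites, 56 higher and 33 lower, against 72.1% higher among all listed sites. Sites in peaks and outside them went opposite ways. In peaks 17 of 40 were higher, against 30.2% of all sites in peaks, with a median log2 ratio of −0.72 against −0.86, and outside peaks 39 of 49 were higher, against 88.2%. The numbers by member are to be read beside the 72.1% of all listed sites. Tal1 had 8 of 10 sites lower and Lyl1 7 of 8. Runx1 had 17 of 20 higher, Erg 15 of 20 and Fli1 9 of 11, not far from the share of all. Lmo2 and Gata2 had 6 of 10 each higher, below it. Sites in peaks numbered 6 at Tal1, 2 at Lyl1, 7 at Runx1 and 10 at Erg. The part of position in or outside peaks in the numbers by member was not tested. All 6 Tal1 sites in peaks were lower, and Runx1, Erg and Fli1 had 4, 6 and 4 higher sites in peaks.

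**Figure D4:**
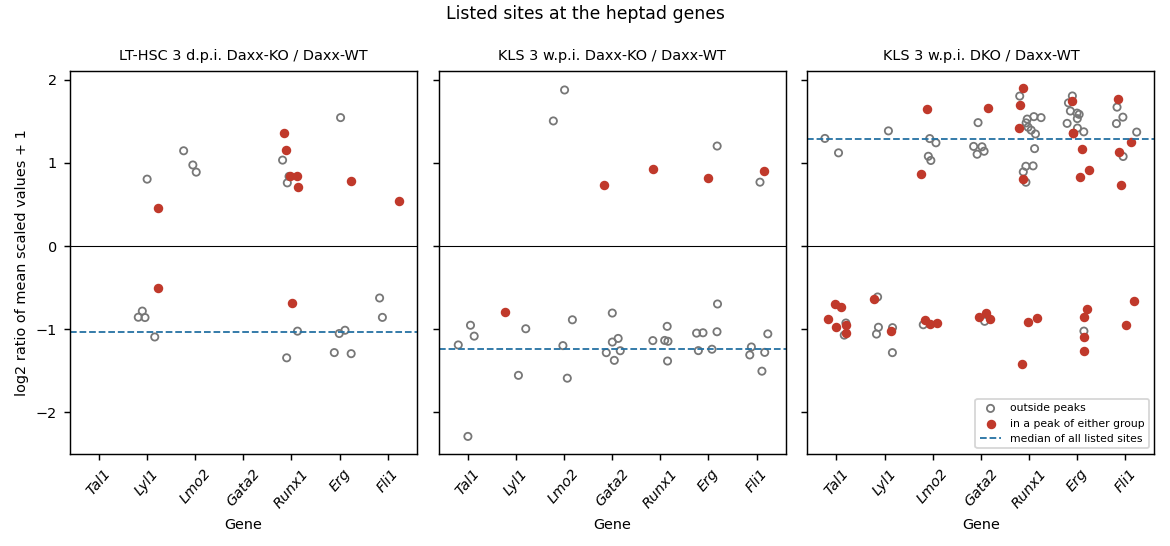
The log2 ratio of every listed heptad site in each of the 3 tables by gene (filled red, within a peak of either group; open grey, outside peaks; dashed line, median of all listed sites). In the DKO panel the filled Tal1 and Lyl1 points all lie below 0, and filled Runx1, Erg and Fli1 points lie on both sides.

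By limma 47 of the 89 sites were called higher and 10 lower, 12 and 5 of them in peaks. Calls among all listed sites in peaks were not counted, so the calls in peaks have no background. The fit gave all named DKO sites the same standard error, 0.359, so the spread of a site's own libraries did not enter its p-value. In the Daxx-KO tables the standard error differed between sites, so the numbers of calls cannot be compared across the tables. Among all 50928 listed sites, on which limma was fitted, 34252 were called higher and 7603 lower, which are larger shares than at the heptad. They are 7.67% and 1.7% of all windows that the authors' software tested, most of which were not fitted. These calls depend on the scaling: by reads per window 0 heptad sites were called higher and 32 lower, 22 of the latter in peaks, and all listed sites split into 3321 higher and 13847 lower. The 10 sites called lower at first were among the 32. Leaving out either DKO library, which leaves 1 whose spread is taken from the Daxx-WT libraries, left 0 calls, with 45246 and 44942 listed sites at an unadjusted p below 0.05. Leaving out either Daxx-WT library also leaves 1 in its group, and not all of the calls remained. The 5 lower sites in peaks that were called under both scalings with all libraries are described first. Not all of these 5 stayed called when a Daxx-WT library was left out. With each library left out in turn, the log2 ratio ranged from −1.15 to −1.05 at Erg +147.0 and from −1.22 to −0.83 at Tal1 +39.6.

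The Erg +85 element, at +147.0, had DKO values of 175 and 187 against Daxx-WT values of 394 and 384, and it fell by 1.10 on the log2 scale (limma, adjusted p = 0.0257). Both DKO libraries stood well below both Daxx-WT libraries, and the DKO list had no peak there. The Tal1 +40 element, at +39.6, had 259 and 252 against 598 and 456, and fell by 1.04 (limma, adjusted p = 0.0447) while it kept a peak. The Lyl1 promoter had 253 and 215 against 531 and 427, and fell by 1.03 (limma, adjusted p = 0.0461). Erg −14.2 had 19.1 and 27.2 against 50.6 and 63.6, and fell by 1.27 (limma, adjusted p = 0.00567). Runx1 −42.8, the upstream region whose site was higher in Daxx-KO LT-HSCs, had 21.2 and 37.5 against 91.4 and 69.1, and fell by 1.42 (limma, adjusted p = 0.00111).

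Other sites at promoters and known elements lay on both sides. Those with lower DKO values did not pass the first test but did so when scaled by reads per window. At the Tal1 promoter the values were 162 and 137 against 311 and 281, a log2 ratio of −0.98 with an adjusted p of 0.0644 by limma, or 0.00761 when scaled by reads per window. The Runx1 +3 element, at +3.7, had 172 and 143 against 335 and 263 (−0.92). A site near the Runx1 +23 element, more than 1 kb from its stated position, had 121 and 112 against 205 and 224 (−0.87). At Gata2 the +9.5 enhancer had 170 and 148 against 367 and 218 (−0.88), where the Daxx-WT libraries lay further apart than the group means. Gata2 −3.9 had 140 and 115 against 228 and 220 (−0.81), and the proximal Gata2 promoter had 56.2 and 71.2 against 107 and 125 (−0.86). The Lmo2 region at −12 from the first coding start had a lower site at −13.0 (−0.94). From the start used for the known elements, which was uncertain at Lmo2, this region met the stated −25 element. Near 2 Runx1 elements, sites outside peaks were higher and passed under neither scaling. Runx1 +1.9, beside the +3 element, had 81.7 and 76.8 against 46.2 and 46.1 (0.77), and Runx1 +108.6, beside the +110 element, had 82.7 and 91.8 against 39.1 and 49.4 (0.97). At the +3 element, a lower site in a peak thus stood near a higher site outside it. Tal1 +3.9, at a further Tal1 promoter, and Lmo2 +14, near the second Lmo2 promoter, were lower outside peaks (−0.93 and −0.95). No site was listed at the Erg and Fli1 promoters or at Tal1 +19, although the DKO list had no peak at any of these.

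**Figure D5:**
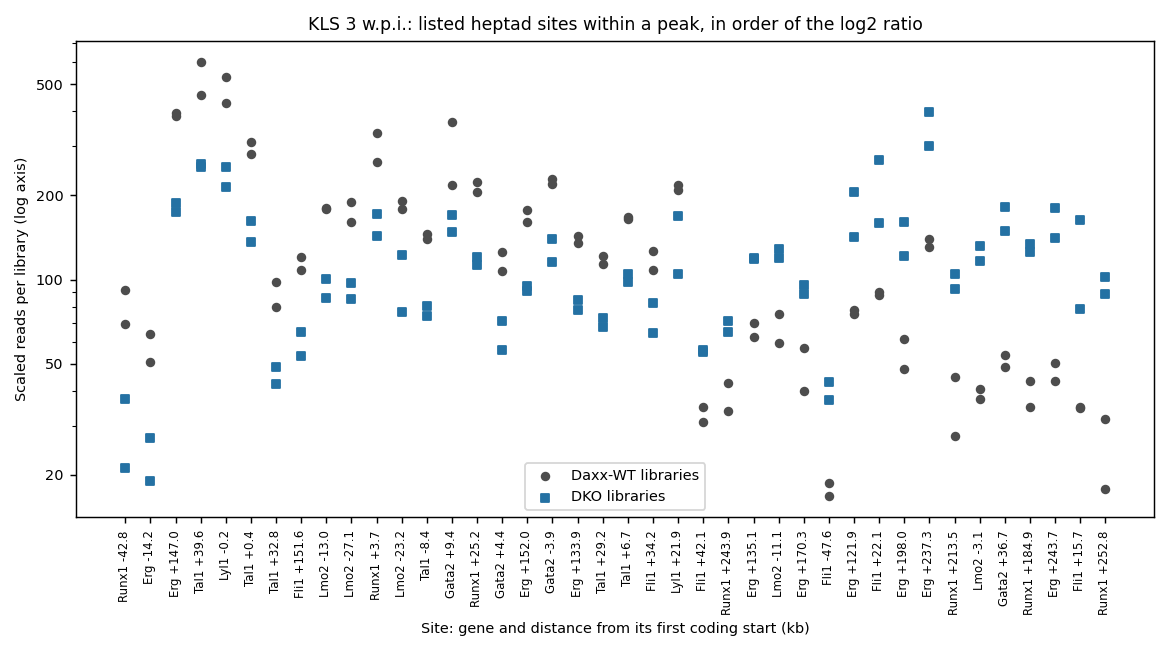
Scaled reads on a log axis at the 40 listed heptad sites within a peak, for the 2 Daxx-WT (grey circles) and 2 DKO (blue squares) KLS libraries, ordered by log2 ratio. The Daxx-WT and DKO points do not overlap at any site, and Runx1 −42.8 is the lowest ratio and Runx1 +252.8 the highest.

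Higher DKO sites in peaks lay in introns and flanks rather than at promoters. Runx1 +252.8 had 102 and 89.0 against 17.8 and 31.8, a log2 ratio of 1.90 with an adjusted p of 6.96e-06 by limma, or 0.0604 when scaled by reads per window. Runx1 +184.9, whose sequence is given above, had 134 and 126 against 43.5 and 35.1, a ratio of 1.70. At Erg +243.7 the values were 180 and 141 against 43.5 and 50.5 (1.75), and at Erg +237.3 they were the highest of these sites, 397 and 300 against 130 and 139 (1.36). Fli1 +15.7 had 163 and 78.7 against 34.6 and 35.1 (1.77) and DKO library 1 stood well above library 2. None of these passed when scaled by reads per window. Outside peaks, Erg −20.8 and Runx1 −10.6 (both 1.81) were among the 5 largest ratios.

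At 2 places a lower and a higher DKO site stood side by side in peaks. At Lmo2 the −13.0 site was lower and the −11.1 site, in a DKO peak, was higher, with 128 and 119 against 75.4 and 59.2 (0.87). Erg +133.9 (−0.76) and +135.1 (0.84) formed the other pair, with a Daxx-WT peak at the first and a DKO peak at the second. At Gata2 the +35.4 peak had no DKO counterpart while the DKO list had a peak at +36.8, and the site at +36.7, which overlaps both, was higher, with 181 and 149 against 48.8 and 53.7 (1.67). Lmo2 −3.1 had 131 and 116 against 37.3 and 40.6 (1.64), at a peak that only the DKO list held. These places were picked out after their values were seen.

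The 7 loci of genes whose proteins work with the heptad had 20, 29 and 75 sites in the 3 tables. Of these, 7, 5 and 54 were higher, against 29.1%, 19.1% and 72.1% of all listed sites. By limma 0, 0 and 51 were called higher and 8 of the DKO sites lower, against 34252 and 7603 of all 50928 listed DKO sites. The largest ratio among them was 2.03, at Ssbp3 in DKO cells. The 8 paralogs of heptad genes had 11, 25 and 74 sites, of which 5, 8 and 58 were higher, beside the same shares of all listed sites. By limma 54 were called higher and 6 lower in DKO cells, with 0 calls in either Daxx-KO table. Within peaks the partner genes had 2 higher and 17 lower DKO sites and the paralogs 12 and 13, beside 17 and 23 for the heptad. Of all listed DKO sites in peaks, 30.2% were higher. The largest paralog ratio was 2.35, at Gata3 in DKO cells.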

How the data were processed

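ATAC-seq libraries were mapped by the authors to mm10, with CASAVA 1.8.4, cutadapt 1.13, STAR 2.5.3 and bedtools named in their processing notes, and the methods state that CMP and GMP libraries had an added single-read run. The authors deposited 1 peak list per group, kept between the libraries of that group. In 5 lists each peak has a score that the authors derived from the irreproducible discovery rate (IDR) and a fold enrichment, the ratio over background that their peak caller gave. The peak caller is not given in the sources used here, and other lists hold positions only, without depth. For 3 contrasts the authors deposited diffReps 1.55.6 tables, from windows of 600 bp moved by 50 bp with fragments of 100 bp and a p cutoff of 0.0001, with reads per library divided by a normalisation constant and the authors' own fold changes, p-values and false discovery rates, which were not used. Columns of other series numbered 0.

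Peaks and sites were assigned to a heptad gene when at least 1 bp lay within the gene or 50 kb of it (GENCODE M21, with 25 and 100 kb as alternatives). A promoter peak lay within 1 kb of a start, and a known element had a peak within 1 kb of its stated distance, from the 1 coding start per gene at which these distances met most peaks. That start was chosen after seeing the data, and at Lmo2 it was ambiguous. The site tests used limma 3.58.1 in R 4.3.3 on log2(value + 1), fitted on the listed sites with a threshold of 0.05. Their p-values were adjusted over all windows that diffReps tested (413247, 407030 and 446463). Intervals are exact (95%). Alternatives were a pseudocount of 5, a mean value of at least 10, scaling to the mean reads per window (4.21 to 16), a replicate block, adjustment over listed sites alone, each library left out, equal-length lists and a stricter score of 540 (IDR 0.05). Scripts used Python 3.11.15 with numpy 2.4.6, pandas 2.3.3, SciPy 1.17.1, matplotlib 3.10.9 and pysam 0.24.0, and the limma step was tested on simulated data. Groups came from the sample labels.

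The regions and sites named were those at promoters or known elements, those in 1 genotype only in 2 or more comparisons, and the 5 sites with the largest ratios per contrast. Other sites named were chosen after their values were seen. The members and gene lists were chosen with earlier results of these data known.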

Additional observations from a re-analysis of the deposited data

How the results depend on the processing

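Of 144 recomputed values, 117 stayed close to the first value (a share within its exact 95% interval) and 27 moved. With lists cut to equal length by width, the share of heptad peaks with a counterpart was 83.0% for Daxx-KO and 81.3% for Daxx-WT CMPs, 82.2% and 87.4% for GMPs, and 67.5% for Daxx-KO LT-HSCs in CMPs. Cut by fold enrichment, it was 89.2% for Daxx-KO and 79.7% for Daxx-WT 3-day LT-HSCs, 89.7% for Daxx-KO KLS cells, 54.7% for Daxx-WT against Daxx-KO KLS cells and 36.5% for DKO cells. Heptad promoters without a DKO peak went from 4 to 1. A stricter score gave 85.7% for Daxx-KO 3-day LT-HSCs. Sites in peaks alone numbered 8 higher and 2 lower in 3-day LT-HSCs, 4 and 1 in Daxx-KO KLS cells and 17 higher in DKO cells, and within 25 kb 9 were lower in 3-day LT-HSCs.

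Calls over all listed sites depended on the settings. In 3-day LT-HSCs there were 0 calls, against 15 with scaling to reads per window and 11428 when adjusted over the listed sites alone. In Daxx-KO KLS cells there were 0, against 4363 with a pseudocount of 5, 2296 with the replicate block and 16711 when adjusted over the listed sites alone. In DKO cells there were 41855, against 17168 with scaling to reads per window, 42605 with the replicate block and 0 to 35650 with 1 library left out, where 0 came from leaving out either DKO library. The cause was not tested, although leaving out a library also removes residual degrees of freedom. Same-numbered KLS libraries hardly deviated together at the listed sites (correlations of 0.0084 and 0.052 for Daxx-KO and −0.0031 for DKO). These sites were selected on the same libraries, so the correlations cannot decide whether the numbers pair them. The 3-day libraries in the site table carry no replicate number. The planned edgeR test was not run, since the deposited values are scaled, with all libraries of a group in 1 cell, and reads recovered from them could not be checked. A mean of about 4 reads per window in the shallowest library limits what weak sites can show.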
